A study of Populus ussuriensis with 12 samples.

Results

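The genes described here are 8 laccases of lignin polymerisation, followed in roots of the poplar *Populus ussuriensis*. They were taken by identifier from a given list, 8 of the 35907 gene identifiers in the files, and the rule itself uses no measured value, although the list was drawn up with earlier results of these data known. No identifier in the files carries a name or product (0 of 35907), so the identity of the 8 genes as laccases rests on that list. RNA-seq libraries came from 4 groups of 3. Overexpressor roots (PuC3H35-OE) on medium with 6% PEG6000, wild-type roots on the same PEG medium, overexpressor roots on control medium, and wild-type roots on control medium made up the groups. In all 4 groups the plants had been propagated in vitro, were 7 days old when moved, and stayed 7 days on their final medium. PEG6000 is a polyethylene glycol that lowers the water potential of a medium and serves as a drought-like stress. PuC3H35 belongs to the CCCH zinc finger proteins. The sources used here give neither the promoter that drives the transgene nor the number of transgenic lines. The transgene's own level was not checked, since no identifier is named for it. Effects of PuC3H35 and of the plant material it was introduced into cannot be told apart.

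Laccases are secreted copper-containing oxidases. In the cell wall they use oxygen to turn monolignols, the phenolic building blocks of lignin, into radicals that couple into the polymer. Class III peroxidases do the same with hydrogen peroxide. In Arabidopsis, stems that lack several laccases at once make little lignin, and in poplar a microRNA, miR397, lowers many laccase transcripts together. In roots lignin is laid down in the water-conducting xylem vessels and in the endodermis, whose lignified Casparian strips seal the path between cells. The comparisons ask how laccase transcript levels in such roots differ on PEG, differ with PuC3H35 overexpression, and whether the PEG response differs between genotypes.

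Depth recovered from the files ran from 10568855 to 12055741 reads per library, and each library had reads for 30432 to 31610 genes. Within each group, replicates varied beyond sampling noise (chi-square per gene 3.23 to 17.2 over the 12 pairs). The labels do not say that libraries of a group came from separate plants, so p-values reflect only how much these libraries varied, and part of that may be technical. Each library is from bulk root tissue, so fewer cells of a type and less RNA per cell cannot be told apart. Levels are given as FPKM, read numbers divided by gene length and by the depth of the library, so that genes of different length can be compared.

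Of the 8 laccases, 7 were expressed in these roots, by the criterion of at least 1 FPKM in 3 or more libraries. Over all genes 69.6% met it. The most abundant in each of the 12 libraries was Potri.009G042500.v3.1, with a mean over all libraries of 21.9 FPKM and a range of 5.68 to 43.3 FPKM. The eighth, Potri.016G112100.v3.1, was detected in all 12 libraries but never above 0.708 FPKM, on 1 to 17 reads per library, and ranked last in each of them. Among the other expressed laccases, Potri.006G087100.v3.1 averaged 11.4 FPKM over the 12 libraries, Potri.001G248700.v3.1 averaged 7.77 FPKM, Potri.010G193100.v3.1 averaged 6.60 FPKM and Potri.001G401300.v3.1 averaged 6.37 FPKM. Potri.016G112000.v3.1 averaged 3.88 FPKM and Potri.008G064000.v3.1 averaged 1.80 FPKM, and each was below 1 FPKM in at least 1 wild-type library on PEG. In wild-type controls Potri.009G042500.v3.1 stood above 88.4% of the tested genes, Potri.006G087100.v3.1 above 76.8% and Potri.008G064000.v3.1 above 20.9%.

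**Figure D1:**
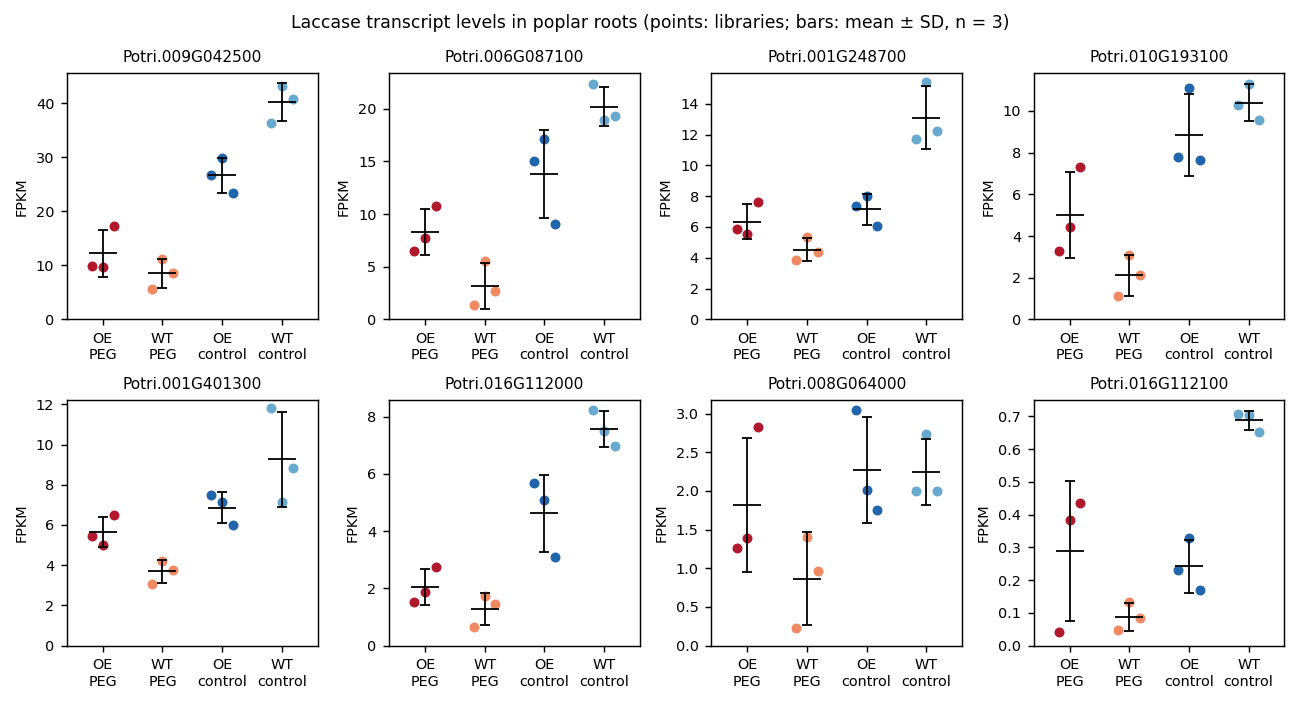
FPKM (y axis, starting at 0 and scaled separately for each gene) of the 8 laccases in the 4 groups, with 1 point per library and black bars for the mean ± SD (n = 3). Wild-type PEG libraries have the lowest mean in all 8 panels, and wild-type controls have the highest in 7, with Potri.008G064000.v3.1 as the exception.

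The order of the laccases was partly the same in each group. Potri.009G042500.v3.1 came first in all 4 groups, and its libraries did not overlap with those of the next gene in 3 of them; on PEG in the overexpressor they overlapped with Potri.006G087100.v3.1. In wild-type controls the first 3 places, held by Potri.009G042500.v3.1, Potri.006G087100.v3.1 and Potri.001G248700.v3.1 at 40.2, 20.2 and 13.1 FPKM, were separated from each other and from the fourth without overlap. Ranges overlapped between Potri.010G193100.v3.1 (10.4 FPKM) and Potri.001G401300.v3.1 (9.26 FPKM), and between the last of these and Potri.016G112000.v3.1 (7.56 FPKM). In wild type on PEG the places from second to seventh, from Potri.001G248700.v3.1 at 4.51 FPKM to Potri.008G064000.v3.1 at 0.867 FPKM, could not be separated from their neighbours. Potri.016G112100.v3.1 was last in every group with no overlap with the gene above it.

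Summed over the 8 laccases, the level was 33.7, 36.0 and 55.5 FPKM in the overexpressor on PEG and 16.0, 32.7 and 24.0 FPKM in PEG-grown wild type. It was 73.3, 80.7 and 57.2 FPKM in overexpressor controls and 103, 107 and 100.4 FPKM in wild-type controls. The groups on different media did not overlap in either genotype. Means were 41.7 ± 11.9 FPKM in the overexpressor on PEG, 24.2 ± 8.37 FPKM in wild type on PEG, 70.4 ± 12 FPKM in overexpressor controls and 104 ± 3.32 FPKM in wild-type controls (SD, n = 3 each). Relative to the wild-type control mean, the summed level was thus 40.3% in the overexpressor on PEG, 23.4% in wild type on PEG and 68.0% in overexpressor controls. Means of single laccases ran upward in the order wild type on PEG, overexpressor on PEG, overexpressor control, wild-type control for 6 of the 8. The exceptions were Potri.008G064000.v3.1, whose overexpressor control mean was the highest, and Potri.016G112100.v3.1, whose overexpressor control mean lay below that of the overexpressor on PEG.

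On PEG the laccases of wild-type roots fell together. All 7 tested laccases were lower on PEG at an adjusted p under 0.05, in a comparison in which 28.6% of the 24976 tested genes were called and 16.6% were called lower. Of all genes called, 58.1% were lower, and 47.6% with limma-voom on recovered reads, where the same 7 laccases were called lower. The test was limma on log2(FPKM + 1), with p-values adjusted over all tested genes by the Benjamini-Hochberg method. The median log2 difference of the 7 was -1.92, against -0.04 over all tested genes. Wild-type means on PEG were 15.8% to 39.9% of the wild-type control means. No laccase had libraries that overlapped between the media, whereas 25.3% of tested genes were lower without overlap.

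Potri.009G042500.v3.1, the most abundant, had 5.68, 11.2 and 8.59 FPKM in wild type on PEG, against 36.4, 43.3 and 40.9 FPKM in wild-type controls. Every PEG library was less than the lowest control by a wide margin, and the mean on PEG was 21.1% of the control mean. Its log2 difference was -2.16 (SE 0.23, 95% interval -2.66 to -1.66), with an adjusted p of 3.11e-05 in limma.

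Potri.006G087100.v3.1 had the largest log2 difference of the laccases. It had 1.33, 5.58 and 2.65 FPKM in wild type on PEG, against 22.3, 18.9 and 19.3 FPKM in wild-type controls. Its PEG libraries were more unequal than its controls, with means of 3.19 ± 2.17 FPKM on PEG and 20.2 ± 1.86 FPKM on control medium (SD, n = 3 each). The log2 difference was -2.46 (SE 0.32, limma adjusted p 1.37e-04), lower than that of 99.8% of tested genes.

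Potri.016G112000.v3.1 and Potri.010G193100.v3.1 fell by a similar amount. Potri.016G112000.v3.1 had 0.666, 1.73 and 1.44 FPKM in wild type on PEG, against 8.22, 7.49 and 6.97 FPKM in wild-type controls, a log2 difference of -1.94 (SE 0.22, limma adjusted p 5.76e-05). Potri.010G193100.v3.1 had 1.13, 3.10 and 2.12 FPKM in wild type on PEG, against 10.3, 11.3 and 9.57 FPKM in wild-type controls, a log2 difference of -1.92 (SE 0.26, limma adjusted p 1.77e-04). In both genes the highest PEG library was well under the lowest control.

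The falls of Potri.001G248700.v3.1 and Potri.001G401300.v3.1 were smaller. Potri.001G248700.v3.1 had 3.83, 5.32 and 4.40 FPKM in wild type on PEG, against 11.7, 15.4 and 12.2 FPKM in wild-type controls (log2 difference -1.35, SE 0.15, limma adjusted p 5.29e-05). Potri.001G401300.v3.1 had 3.07, 4.23 and 3.78 FPKM in wild type on PEG, against 11.8, 7.12 and 8.83 FPKM in wild-type controls (log2 difference -1.11, SE 0.17, limma adjusted p 3.79e-04). Their means on PEG were 34.5% and 39.9% of the control means, against 15.8% to 21.1% for the 4 genes above.

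Potri.008G064000.v3.1, at a low level throughout, had 0.224, 1.41 and 0.97 FPKM in wild type on PEG, against 2.00, 2.74 and 2.00 FPKM in wild-type controls. The groups did not overlap, and the log2 difference was -0.85 (SE 0.27, limma adjusted p 0.0312). Its mean on PEG was 38.5% of the control mean. With a pseudocount of 0.1 FPKM its log2 difference was -1.53, and with limma-voom on recovered reads it was -1.56. For Potri.001G401300.v3.1 these values were -1.28 and -1.23. The call for Potri.008G064000.v3.1 was lost in 5 of 12 fits that left out 1 library. Fits without an overexpressor library could not move its log2 difference. Among fits without a wild-type library, the call held only without wild-type PEG library 2. Without wild-type control library 1, 2 or 3 the adjusted p was 0.0518, 0.102 or 0.0593, and without wild-type PEG library 1 or 3 it was 0.136 or 0.0564; over all 22 alternatives it ran from 0.0166 to 0.136. The other 6 falls kept an adjusted p of at most 0.00277 in all 22 alternatives tried.

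In the overexpressor the fall on PEG was called for 1 laccase of 7. The called share of all tested genes was 2.08% in this comparison, with 0.537% called lower. The called gene was Potri.009G042500.v3.1, with 9.80, 9.66 and 17.3 FPKM in the overexpressor on PEG, against 26.8, 29.9 and 23.4 FPKM in overexpressor controls. Its groups did not overlap, although PEG library 4 was much nearer to the controls than the other two. The log2 difference was -1.11 (SE 0.23, 95% interval -1.60 to -0.61, limma adjusted p 0.0282). The call was lost without overexpressor control library 1 (adjusted p 0.0894) or 2 (0.0871), and without overexpressor PEG library 1 (0.13) or 3 (0.0969); over all 22 alternatives adjusted p ran from 0.00645 to 0.13.

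The other 6 tested laccases were not called in the overexpressor on PEG. Potri.016G112000.v3.1 had 1.53, 1.87 and 2.75 FPKM in the overexpressor on PEG, against 5.68, 5.08 and 3.10 FPKM in overexpressor controls, without overlap. Its log2 difference was -0.87 (SE 0.22, limma adjusted p 0.0784), and without overexpressor control library 5 it was -1.08 with an adjusted p of 0.0343. Potri.010G193100.v3.1 had 3.28, 4.45 and 7.30 FPKM in the overexpressor on PEG, against 7.79, 11.1 and 7.64 FPKM in overexpressor controls, again without overlap (log2 difference -0.75, SE 0.26, limma adjusted p 0.212). These were the 3 laccases whose media did not overlap in the overexpressor, where 10.7% of tested genes were lower without overlap.

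Potri.006G087100.v3.1, which had the largest fall in wild type, had 6.50, 7.72 and 10.8 FPKM in the overexpressor on PEG, against 15.0, 17.1 and 9.10 FPKM in overexpressor controls. PEG library 4 lay above control library 5, so the groups overlapped (log2 difference -0.64, SE 0.32, 95% interval -1.35 to 0.06, limma adjusted p 0.434). Potri.001G248700.v3.1 had 5.84, 5.53 and 7.65 FPKM in the overexpressor on PEG, against 7.33, 8.03 and 6.06 FPKM in overexpressor controls, and its interval of -0.49 to 0.18 around -0.15 included 0. Potri.001G401300.v3.1 had 5.46, 5.01 and 6.49 FPKM in the overexpressor on PEG, against 7.49, 7.12 and 5.99 FPKM in overexpressor controls, with a log2 difference of -0.24 (SE 0.17). Potri.008G064000.v3.1 had 1.26, 1.39 and 2.82 FPKM in the overexpressor on PEG, against 3.04, 2.01 and 1.75 FPKM in overexpressor controls, with a log2 difference of -0.23 (SE 0.27). In these 4 genes the media overlapped. The median log2 difference of the 7 laccases was -0.64 in the overexpressor, against -0.05 over all tested genes.

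**Figure D2:**
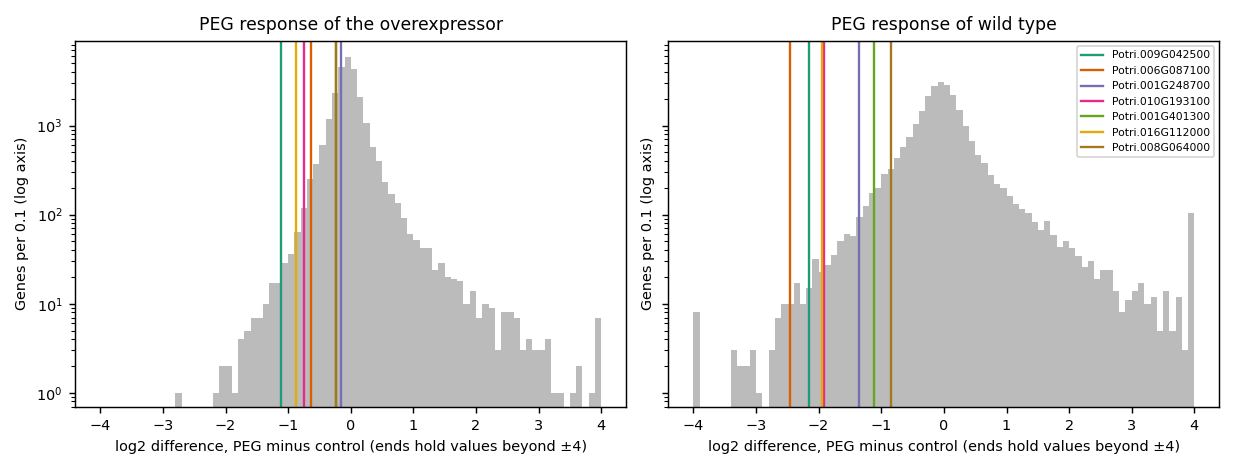
Log2 difference between PEG and control medium (x axis) of all 24976 tested genes, as grey bars on a logarithmic count axis, with the 7 tested laccases as coloured lines, for the overexpressor (left) and wild type (right). The lines lie between -1.11 and -0.15 on the left, where the line of Potri.001G401300.v3.1 at -0.24 is hidden behind that of Potri.008G064000.v3.1 at -0.23, and between -2.46 and -0.85 on the right.

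Whether the genotypes differed in their PEG response was tested as the interaction, the overexpressor's log2 PEG difference minus that of wild type. It was positive and past the threshold for 3 laccases of 7, in a comparison that called 7.50% of all tested genes and 3.50% as positive. A positive value here means that the level on PEG was less reduced in the overexpressor than in wild type. Potri.001G248700.v3.1 had an interaction of 1.20 (SE 0.22, 95% interval 0.72 to 1.68, limma adjusted p 0.00708), and it remained called in all 21 alternatives. Its PEG means were 6.34 ± 1.14 FPKM in the overexpressor and 4.51 ± 0.751 FPKM in wild type, and its control means were 7.14 ± 1.00 FPKM in the overexpressor and 13.1 ± 2.03 FPKM in wild type (SD, n = 3 each). For this gene the genotypes thus differed more on control medium than on PEG.

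Potri.006G087100.v3.1 had the largest interaction, 1.82 (SE 0.46, 95% interval 0.83 to 2.81, limma adjusted p 0.0325), higher than that of 99.8% of tested genes. It stayed called in 4 of 12 fits without 1 library. The adjusted p rose to between 0.0558 and 0.0743 without any 1 of wild-type control libraries 1, 2 and 3, overexpressor control library 5, wild-type PEG libraries 1 and 3, and overexpressor PEG libraries 3 and 4. Its log2 value in these 12 fits ran from 1.46 to 2.21. Without a filter on low genes its adjusted p was 0.0559. Potri.001G401300.v3.1 had an interaction of 0.87 (SE 0.24, limma adjusted p 0.0456), called in 2 of 12 such fits, with values of 0.69 to 1.02 and adjusted p values of 0.0228 to 0.119. The 2 fits that kept this call were those without wild-type control library 2 and without wild-type PEG library 2. It was also lost with a minimum of 0.1 FPKM (adjusted p 0.0579) and without a filter (0.072).

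The other 4 interactions were positive and not called. They were 1.17 (SE 0.37, limma adjusted p 0.077) for Potri.010G193100.v3.1, 1.07 (SE 0.32, limma adjusted p 0.0636) for Potri.016G112000.v3.1, 1.05 (SE 0.32, limma adjusted p 0.0724) for Potri.009G042500.v3.1 and 0.62 (SE 0.38, limma adjusted p 0.379) for Potri.008G064000.v3.1. Without wild-type PEG library 2, Potri.010G193100.v3.1 and Potri.009G042500.v3.1 were also called, at 1.39 (adjusted p 0.041) and 1.26 (adjusted p 0.0363), which made 5 called laccases. Without overexpressor PEG library 1, Potri.010G193100.v3.1 was called at 1.39 (adjusted p 0.043). The median interaction of the 7 laccases was 1.07, against -0.01 over all tested genes. Of all tested genes, 0.537% were called lower on PEG in the overexpressor and 16.6% in wild type. A weaker fall in the overexpressor is thus not shown to be particular to the laccases.

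On control medium 1 laccase of 7 was called between genotypes, and it was lower in the overexpressor. This comparison called 20.3% of all tested genes, 7.56% as lower and 12.8% as higher, so a count of 1 in 7 does not set the laccases apart; with median-ratio scaling between libraries the split was 10.5% lower and 9.02% higher. The gene was Potri.001G248700.v3.1, with 7.33, 8.03 and 6.06 FPKM in overexpressor controls, against 11.7, 15.4 and 12.2 FPKM in wild-type controls. The overexpressor libraries were all under the lowest wild-type library, and the mean was 54.6% of wild type. Its log2 difference was -0.79 (SE 0.15, 95% interval -1.13 to -0.45, limma adjusted p 0.00485), and it was called in all 22 alternatives.

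Another 3 laccases were lower in overexpressor controls without overlap but were not called; 13.7% of tested genes were lower without overlap. Potri.009G042500.v3.1 had 26.8, 29.9 and 23.4 FPKM in overexpressor controls, against 36.4, 43.3 and 40.9 FPKM in wild-type controls (log2 difference -0.58, SE 0.23, limma adjusted p 0.0942). Potri.016G112000.v3.1 had a log2 difference of -0.63 (SE 0.22, limma adjusted p 0.0638), and Potri.006G087100.v3.1 one of -0.56 (SE 0.32, limma adjusted p 0.237). Potri.009G042500.v3.1 was called without overexpressor PEG library 4 (adjusted p 0.0411) and Potri.016G112000.v3.1 without wild-type PEG library 1 (adjusted p 0.0461). Neither of those libraries belongs to the groups compared here; they enter through the shared estimate of spread. With limma-voom on recovered reads both genes were called (adjusted p 0.0323 for Potri.009G042500.v3.1 and 0.0192 for Potri.016G112000.v3.1).

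For the remaining 3 laccases the genotypes overlapped on control medium. Potri.010G193100.v3.1 averaged 8.85 ± 1.96 FPKM in overexpressor controls and 10.4 ± 0.893 FPKM in wild-type controls, and Potri.001G401300.v3.1 averaged 6.86 ± 0.78 FPKM in overexpressor controls and 9.26 ± 2.38 FPKM in wild-type controls (SD, n = 3 each). Potri.008G064000.v3.1 was at 2.27 ± 0.686 FPKM in overexpressor controls and 2.25 ± 0.427 FPKM in wild-type controls, and the interval of its log2 difference was -0.58 to 0.58. The median log2 difference of the 7 laccases was -0.56, against 0.08 over all tested genes.

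On PEG 2 laccases of 7 were called between genotypes, and both were higher in the overexpressor. Here 14.5% of all tested genes were called, 9.19% as higher and 5.30% as lower; median-ratio scaling gave 5.75% higher and 7.35% lower. Potri.006G087100.v3.1 had 6.50, 7.72 and 10.8 FPKM in the overexpressor on PEG, against 1.33, 5.58 and 2.65 FPKM in wild type on PEG. Its groups did not overlap, and its mean was 2.61 times that of wild type (log2 difference 1.26, SE 0.32, limma adjusted p 0.0225). Potri.010G193100.v3.1 had 3.28, 4.45 and 7.30 FPKM in the overexpressor on PEG, against 1.13, 3.10 and 2.12 FPKM in wild type on PEG. Here the lowest overexpressor library was only just above the highest wild-type library, and the mean was 2.37 times that of wild type (log2 difference 0.94, SE 0.26, limma adjusted p 0.0311).

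Both calls held in 8 of 12 fits that left out 1 library. Fits without a control library could not move these log2 differences and changed only the shared estimate of spread. Among fits without a library of the compared groups, both calls held only without wild-type PEG library 2 and without overexpressor PEG library 1. Without wild-type PEG library 1 the adjusted p was 0.0889 for Potri.006G087100.v3.1 and 0.127 for Potri.010G193100.v3.1, and without wild-type PEG library 3 it was 0.0779 and 0.0829 in the same order of genes. Without overexpressor PEG library 3 it was 0.0562 for Potri.006G087100.v3.1 and 0.0683 for Potri.010G193100.v3.1, and without overexpressor PEG library 4 it was 0.0718 and 0.0977 in the same order. The direction was the same in each of these fits. Potri.010G193100.v3.1 also missed the threshold with limma-voom on recovered reads (log2 difference 1.13, adjusted p 0.0587) and with no filter on low genes (0.0527). Over all 22 alternatives the adjusted p ran from 0.00333 to 0.0889 for Potri.006G087100.v3.1 and from 0.0168 to 0.127 for Potri.010G193100.v3.1.

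Potri.001G248700.v3.1 and Potri.001G401300.v3.1 were also higher in the overexpressor on PEG without overlap but were not called. Potri.001G248700.v3.1 averaged 6.34 ± 1.14 FPKM in the overexpressor and 4.51 ± 0.751 FPKM in wild type (SD, n = 3 each; log2 difference 0.41, SE 0.15, limma adjusted p 0.0988). Potri.001G401300.v3.1 averaged 5.65 ± 0.755 FPKM in the overexpressor and 3.69 ± 0.586 FPKM in wild type (SD, n = 3 each; log2 difference 0.50, SE 0.17, limma adjusted p 0.0637). It was called without wild-type control library 1 (adjusted p 0.0341) or 2 (0.0399). Without overlap, 22.6% of tested genes were higher in this comparison. Potri.009G042500.v3.1, Potri.016G112000.v3.1 and Potri.008G064000.v3.1 overlapped between genotypes on PEG, with log2 differences of 0.48, 0.43 and 0.61. The median of the 7 laccases was 0.50, against 0.08 over all tested genes. These comparisons share libraries (each of the 4 groups enters 2 of them, and all enter the interaction), so the counts are not independent of each other.

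**Figure D3:**
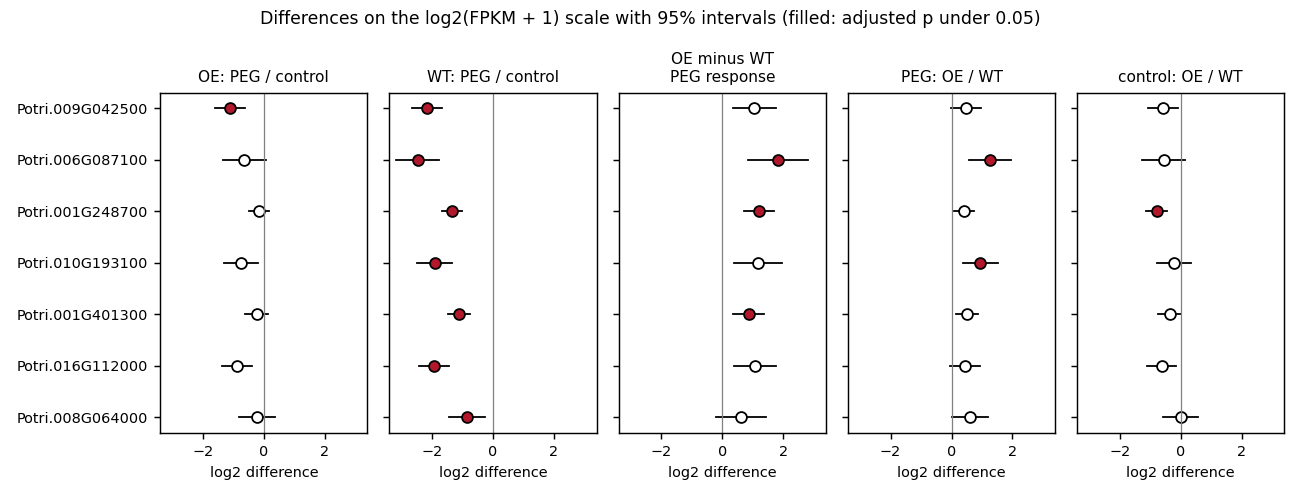
Log2 differences (x axis) of the 7 tested laccases (rows) in the 5 comparisons, with 95% intervals as lines and filled points for an adjusted p under 0.05. All 7 points are filled for PEG in wild type, 1 for PEG in the overexpressor, 3 for the interaction, 2 for the genotypes on PEG and 1 for the genotypes on control medium.

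Within groups the laccases were high or low in the same libraries. Wild-type PEG library 1 had the lowest level of its group for all 8 laccases, at a median of 53.2% of the group mean, and wild-type PEG library 2 had the highest for all 8, at a median of 141%. Overexpressor PEG library 4 was the highest of its group for all 8, at a median of 138% of the group mean. Overexpressor control library 5 was the lowest of its group for all 8, at a median of 80.9%. Wild-type controls showed no such library, and their medians ran from 94.1% to 105%. The share of all tested genes with the same highs and lows was not worked out. These highs and lows are thus not shown to be particular to the laccases. Wild-type PEG library 1 was also the shallowest of the 12 libraries, with 10568855 reads. Wild-type PEG libraries 2 and 3 had 11119328 and 11724711 reads. In reads, the 8 laccases together had 369 in wild-type PEG library 1, 790 in library 2 and 613 in library 3. In FPKM, which is already divided by depth, the laccase sums were 16.0, 32.7 and 24.0 in the same order. Any further part of depth in the low laccase levels of wild-type PEG library 1 was not tested. Since the laccases shared their high and low libraries, calls of several members in 1 comparison rest on the same few libraries.

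**Figure D4:**
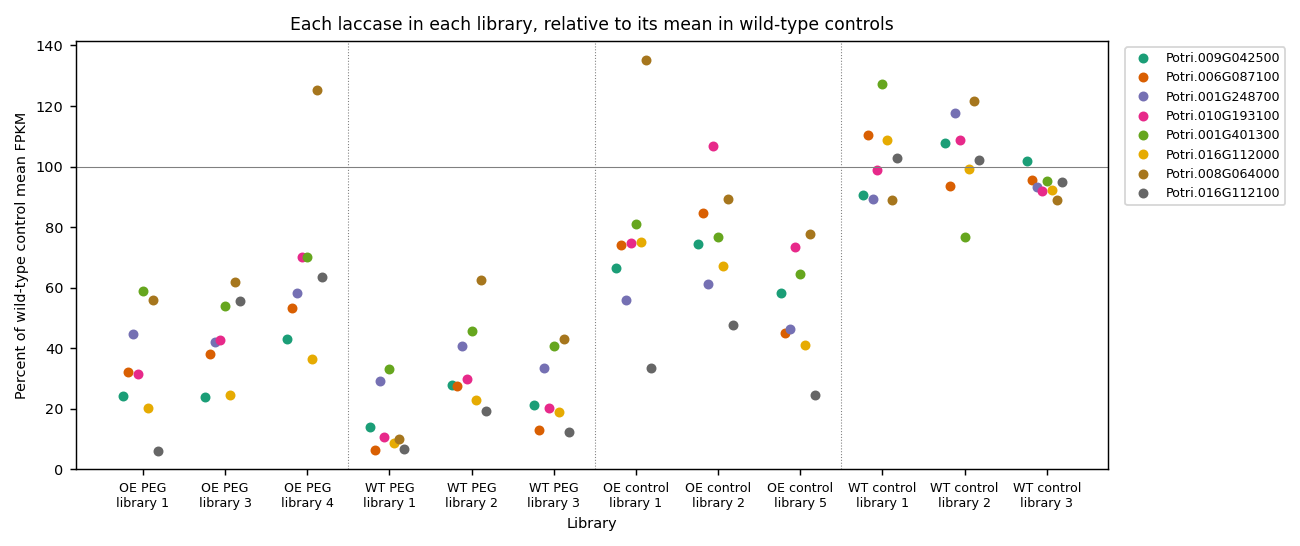
Level of each laccase in each library as a percent of that gene's mean in wild-type controls (y axis), with the 12 libraries along the x axis and 1 colour per gene. Among the wild-type PEG libraries, library 1 is lowest and library 2 highest for all 8 genes, and overexpressor PEG library 4 is the highest of its group for all 8.

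The make-up of the summed laccase level also differed between media, as the members differed in how much they were reduced. Potri.006G087100.v3.1 made up 12.1% ± 4.46 of the sum in wild type on PEG and 19.5% ± 1.95 in wild-type controls (SD, n = 3 each). Potri.001G401300.v3.1 made up 16.0% ± 3.14 in wild type on PEG and 8.96% ± 2.39 in wild-type controls, and Potri.001G248700.v3.1 made up 19.5% ± 3.99 in wild type on PEG and 12.6% ± 1.61 in wild-type controls. The libraries of the media did not overlap for any of these shares. Potri.009G042500.v3.1 kept the largest share, at 35.2% ± 0.796 in wild type on PEG and 38.8% ± 3.11 in wild-type controls. In the overexpressor its share was 29.0% ± 2.15 on PEG and 38.2% ± 2.40 on control medium, without overlap. There Potri.006G087100.v3.1 was at 20.0% ± 1.21 on PEG and 19.2% ± 2.88 on control medium. Potri.001G248700.v3.1 made up 15.5% ± 1.77 on PEG and 10.2% ± 0.358 on control medium in the overexpressor. Potri.001G401300.v3.1 made up 13.9% ± 2.24 on PEG and 9.83% ± 0.893 on control medium there. The media did not overlap for either of these last shares. Shares of 1 sum depend on each other, and no test was made of them.

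**Figure D5:**
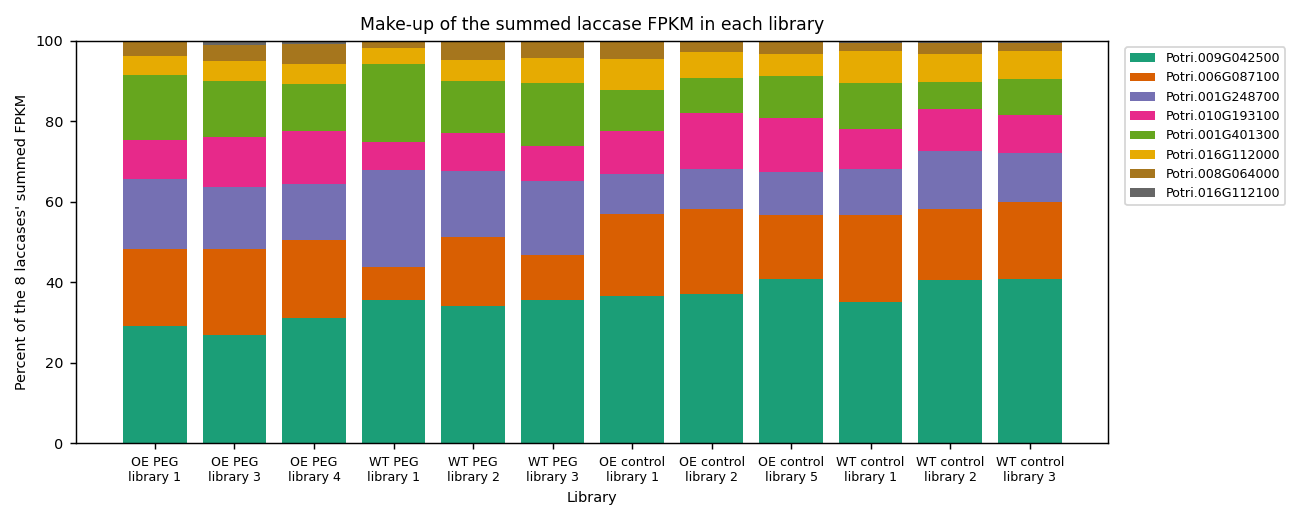
Share of each laccase in the summed FPKM of the 8 (y axis, percent) in each of the 12 libraries (x axis), stacked in the order of the wild-type control means. The segment of Potri.006G087100.v3.1 is on average narrowest in the wild-type PEG libraries, at 8.35% to 17.1%, and that of Potri.001G401300.v3.1 is wider there, at 12.9% to 19.2%, than in wild-type controls.

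Potri.016G112100.v3.1 stayed below the level needed for the test, and its values are few reads. It had 0.0424, 0.383 and 0.437 FPKM in the overexpressor on PEG and 0.0466, 0.133 and 0.0841 FPKM in PEG-grown wild type. It had 0.23, 0.328 and 0.169 FPKM in overexpressor controls and 0.708, 0.703 and 0.654 FPKM in wild-type controls. Every wild-type control was above every library of the other groups. Its summed reads were 20 in the overexpressor on PEG (exact 95% Poisson interval 12.2 to 30.9), 6 in wild type on PEG (2.2 to 13.1), 17 in overexpressor controls (9.90 to 27.2) and 49 in wild-type controls (36.3 to 64.8). These intervals cover counting error only. With the minimum lowered to 0.1 FPKM it passed the test for PEG in wild type (log2 difference -0.63, limma adjusted p 0.00218), and limma-voom on the recovered reads gave -2.68 (adjusted p 0.00757). With the same minimum its genotype difference on control medium was -0.44 (limma adjusted p 0.0269) and its interaction 0.67 (limma adjusted p 0.039), and with limma-voom neither was called (adjusted p 0.0682 and 0.126 in that order). The identifier next to it in the files is another member, Potri.016G112000.v3.1, with recovered gene lengths of 2028 and 2130 bases in that order. The handling of reads that match more than 1 laccase is not stated in the labels or headers, so the split of any such reads is uncertain. Whether these neighbours share sequence was not checked.

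The genes whose levels followed the summed laccase level most closely over the 12 libraries were Potri.006G129200.v3.1 (Pearson r 0.987), Potri.016G052100.v3.1 (0.987) and Potri.006G194900.v3.1 (0.986), of 24969 tested genes that are not laccases listed here. Potri.006G129200.v3.1 averaged 16.0 FPKM in the overexpressor on PEG, 7.84 FPKM in wild type on PEG, 23.2 FPKM in overexpressor controls and 43.1 FPKM in wild-type controls. Potri.016G052100.v3.1 averaged 13.1 FPKM in the overexpressor on PEG, 5.75 FPKM in wild type on PEG, 20.1 FPKM in overexpressor controls and 30.6 FPKM in wild-type controls. In all, 370 genes (1.48%) had an r of 0.9 or more with the sum. Nearest to Potri.009G042500.v3.1 alone were Potri.001G052300.v3.1 (r 0.973), Potri.014G111200.v3.1 (0.972) and Potri.006G194900.v3.1 (0.970). These values describe likeness on the log2(FPKM + 1) scale; the libraries fall into 4 groups, whose means differ, and no test was made. None of these genes is named in the files.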

How the data were processed

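RNA-seq of roots in 12 libraries was analysed from 1 deposited table per library. The deposited values are taken as FPKM made by the authors: the headers name no unit, and after scaling by a library total all of the 370737 values above 0 (100.0%) came out as whole reads within 0.01 read. Reads and fragments could not be told apart this way. Libraries were made with a TruSeq kit from CTAB-extracted total RNA, per the labels' protocols. Bowtie2 2.2.3 and HISAT2 2.1.0 are named, without roles, in the submitters' processing notes; for the counter, the annotation and the build, a name is not given in the sources used here.

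Tests were made with limma 3.58.1 in R 4.3.3, using its empirical Bayes step with a trend on mean level, on log2(FPKM + 1), a pseudocount of 1 FPKM. They ran over the 24976 genes that reached 1 FPKM in 3 libraries or more. The model was 1 fit of 4 group means to 12 libraries with 8 residual degrees of freedom, two-sided, with Benjamini-Hochberg adjustment over all tested genes and calls at 0.05. Differences on this scale understate the change of low genes. Data simulated for the genotypes on control medium gave calls for 4.48% of genes changed 1.5-fold, 31.3% of those changed 2.0-fold and 98.5% of those changed 4.0-fold, and for 6 of 24013 unchanged genes. The simulated counts had the same fixed spread beyond counting error for all genes, not estimated from these libraries. Those shares therefore need not hold for these data. Alternatives were another pseudocount, other filters, scalings, a variance model without trend, limma-voom with TMM factors on recovered reads, fits of the compared libraries only, a replicate block and leaving out each library. limma-voom with the lower filter was added after the data were seen. The 8 laccases are named whatever their values; the 3 genes most like their sum, and like the most abundant one, were named by Pearson r. The members and lists were chosen with earlier results of these data known. Lists of other lignin genes and cell type markers could not be formed, because no identifier is annotated here, so the root label was not checked against markers.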

Additional observations from a re-analysis of the deposited data

Results flagged for a closer look

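The PEG response was called different between the genotypes for 3 laccases of 7, by the interaction test of limma over all tested genes. This test called 7.50% of all tested genes, and 3.50% as positive. Of all tested genes, 0.537% were called lower on PEG in the overexpressor and 16.6% in wild type. Of 12 fits without 1 library, the call held in 12 for Potri.001G248700.v3.1, 4 for Potri.006G087100.v3.1 and 2 for Potri.001G401300.v3.1. For Potri.001G248700.v3.1 the log2 difference between genotypes was -0.79 on control medium and 0.41 on PEG. The interaction, the overexpressor's log2 PEG difference minus that of wild type, was 1.82 for Potri.006G087100.v3.1 (adjusted p 0.0325, 0.00564 to 0.12 over its 21 alternatives), 1.20 for Potri.001G248700.v3.1 (adjusted p 0.00708, 0.00698 to 0.0247) and 0.87 for Potri.001G401300.v3.1 (adjusted p 0.0456, 0.0228 to 0.278). For Potri.001G248700.v3.1 the log2 PEG difference was -0.15 in the overexpressor and -1.35 in wild type, for Potri.006G087100.v3.1 it was -0.64 in the overexpressor and -2.46 in wild type, and for Potri.001G401300.v3.1 it was -0.24 in the overexpressor and -1.11 in wild type.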

How the results depend on the processing

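Of 763 log2 differences of single laccases recomputed under alternatives, 698 kept their direction and side of the threshold, 47 lost a call, 14 gained one and 4 reversed, and no laccase changed sign under another scaling. All 4 reversals were of Potri.008G064000.v3.1 between genotypes on control medium, 0.00 on the log2 scale, which became 0.11 with a replicate block and ran from -0.17 to 0.11 over fits without 1 library (0.10, 0.04 and 0.11 without wild-type control library 2 and overexpressor control libraries 2 and 5). The number of laccases called between genotypes on control medium (1) was 2 with no filter, with a minimum of 0.1 FPKM, with median-ratio scaling and in the libraries compared only, and 3 with limma-voom under either filter. Between genotypes on PEG (2) it was 1 with no filter, with limma-voom under either filter, in the libraries compared only and with the block. For PEG in the overexpressor (1) it was 0 with no filter and in the libraries compared only, where Potri.009G042500.v3.1 had adjusted p values of 0.053 and 0.0711. With no filter the interaction calls of Potri.006G087100.v3.1 and Potri.001G401300.v3.1 were lost, and Potri.016G112100.v3.1 was called (limma adjusted p 0.033). With a minimum of 0.1 FPKM the interaction call of Potri.001G401300.v3.1 was lost, and Potri.016G112100.v3.1 was called (limma adjusted p 0.039). The interaction count (3) was 1 with the replicate block. Library numbers 4 and 5 belong to a single library each, overexpressor PEG library 4 and overexpressor control library 5. The block therefore fits both exactly and in effect leaves them out. The block left the other 3 counts at 1 (genotypes on control medium), 7 (PEG in wild type) and 1 (PEG in the overexpressor) called laccases. It changed calls for Potri.006G087100.v3.1 and Potri.001G401300.v3.1 only. Same-numbered libraries did not deviate together (correlations -0.233 to 0.263, median -0.005, over 12 pairs), and the labels do not explain the numbers, so the libraries were not paired. Leaving out 1 library gave 1 to 2 called laccases between genotypes on control medium, 0 to 3 on PEG, 6 to 7 for PEG in wild type, 0 to 2 for PEG in the overexpressor and 1 to 5 for the interaction. The causes of these changes were not tested. With 3 libraries a group, a missed threshold does not show that levels were equal, and for Potri.016G112100.v3.1 depth limits every value.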
